A study of Drosophila melanogaster with 4 samples.

Results

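The regions described here are the H3K23ac-enriched regions of the middle of chromosome arm 2L in adult Drosophila melanogaster heads. They were chosen by position alone, as all listed regions whose midpoint lay between 2000001 and 21011544 on 2L of FlyBase release 5, the arm without its outer 2 Mb at each end. This rule took 1424 of the 9467 regions of replicate 1, 1435 of the 9142 regions of replicate 2 and 2634 of the 16244 regions of the combined list. The header of each list gives 2L a length of 23011544 bp, so the span of 19.0 Mb is 82.6% of the arm. All positions below are on release 5, and distal means towards the telomere, the low-coordinate side of 2L.

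Chromatin came from head nuclei of wild-type flies of the Oregon-R strain, raised in population cages, with the stage given as mixed adult; the labels name no treatment, transgene or mutation, and no group stands against these flies. Heads were separated from whole adults with sieves, so the material mixes all cell types of the head, and sexes are not separated in the labels. The series held 2 H3K23ac ChIP samples and 2 input samples, and the lists of the 2 ChIP samples and 1 combined list of the series were analysed. Nothing in the labels states that the replicates came from separate collections, so their spread, and any p-value, may be technical. The lists hold no reads or counts, and the depth is unknown.

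Acetylation of a histone tail lysine removes its positive charge, is placed by acetyltransferases and taken off by deacetylases, and can be bound by bromodomain proteins. H3K23ac is such a mark on histone H3 and is generally found at active promoters and enhancers; in Drosophila the acetyltransferase CBP, encoded by nejire, is known to place it. The arms of fly chromosomes alternate between compact stretches of densely packed active genes and long stretches of silent chromatin that hold few or tissue-restricted genes. No gene is named here, since no annotation of release 5 was used.

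H3K23ac marked the 2L middle in many short domains with wide spaces between them. The members covered 18.4% of the span in replicate 1 and 18.7% in replicate 2, a mean of 18.6% ± 0.201 (SD, n = 2 here and below), or 3.51 Mb and 3.56 Mb. There were 74.9 regions per Mb in replicate 1 and 75.5 in replicate 2. The combined list had 139 regions per Mb and covered 42.7% of the span, which was 2.31 times the length covered in replicate 1 and 2.28 times that in replicate 2.

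Most members were short, and a few were wide. Their median width was 1881 bp (replicate 1) and 1891 bp (replicate 2), with quartiles of 1497 and 2713.75 bp in replicate 1 and 1495.5 and 2780.0 bp in replicate 2. The shortest was 1301 bp in both replicates, and the widest were 19700 bp and 20421 bp. Regions of at least 10 kb numbered 15 in replicate 1 and 17 in replicate 2, and held 5.95% and 6.24% of the summed width. The combined list had a median of 1912 bp, close to that of the replicates, but 118 regions reached 10 kb and held 22.8% of the summed width.

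Neighbouring members were usually a few kb apart, with a long upper tail. Neighbours of replicate 1 had a median gap of 3396 bp and a mean gap of 10895 bp, and those of replicate 2 3537.5 bp and 10789 bp. Gaps under 1 kb made up 23.4% of all gaps in replicate 1 and 22.2% in replicate 2. The upper quartile was 10776.5 bp and 10548.5 bp, and the upper decile 27698 bp and 27416 bp. The median gap in the combined list was 1467 bp.

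The score is the authors' own value for each region. It behaves as a log2 ratio with an unknown zero point, so that only differences within 1 list are read. The median member scored 0.56 in each replicate, and the middle 80% lay between 0.45 and 0.68 in replicate 1 and between 0.45 and 0.67 in replicate 2. The lowest scores were 0.25 and 0.24 and the highest 1.01 and 1.07. Combined members had a median of 0.39. Wider members scored higher, with a Spearman rho between width and score of 0.53 in replicate 1, 0.54 in replicate 2 and 0.42 in the combined list, across regions that are not independent replicates.

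At the position thresholds, replicate 1 had the region 1990980 to 1993404 just outside the distal border and 1994035 to 2006471 just inside it, and replicate 2 had 1995255 to 1997316 outside and 1997463 to 2003912 inside. At the proximal border the last members were 21007352 to 21011254 in replicate 1 and 21008023 to 21012652 in replicate 2, and the first regions beyond were 21011966 to 21013464 and 21015546 to 21020726. The combined list had a region of 17987 bp just outside the distal border, from 1988582 to 2006568, and a member of 39803 bp at the proximal border, from 20980986 to 21020788. A region thus crossed the distal border in all 3 lists, and the proximal border in replicate 2 and the combined list.

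Coverage was uneven at the scale of 100 kb, and both replicates showed the same uneven pattern. Over the 190 full windows of 100 kb the covered share ran between 0 and 72.6% in replicate 1, with a median of 15.3%, and between 0 and 77.2% in replicate 2, with a median of 15.0%. Fewer than 5% of the bases were covered in 40 windows of replicate 1 and 43 of replicate 2, and in both replicates for 34 of these. More than 30% were covered in 40 and 44 windows, and in both replicates for 35. The combined list had 6 windows below 5% and 132 above 30%.

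**Figure D1:**
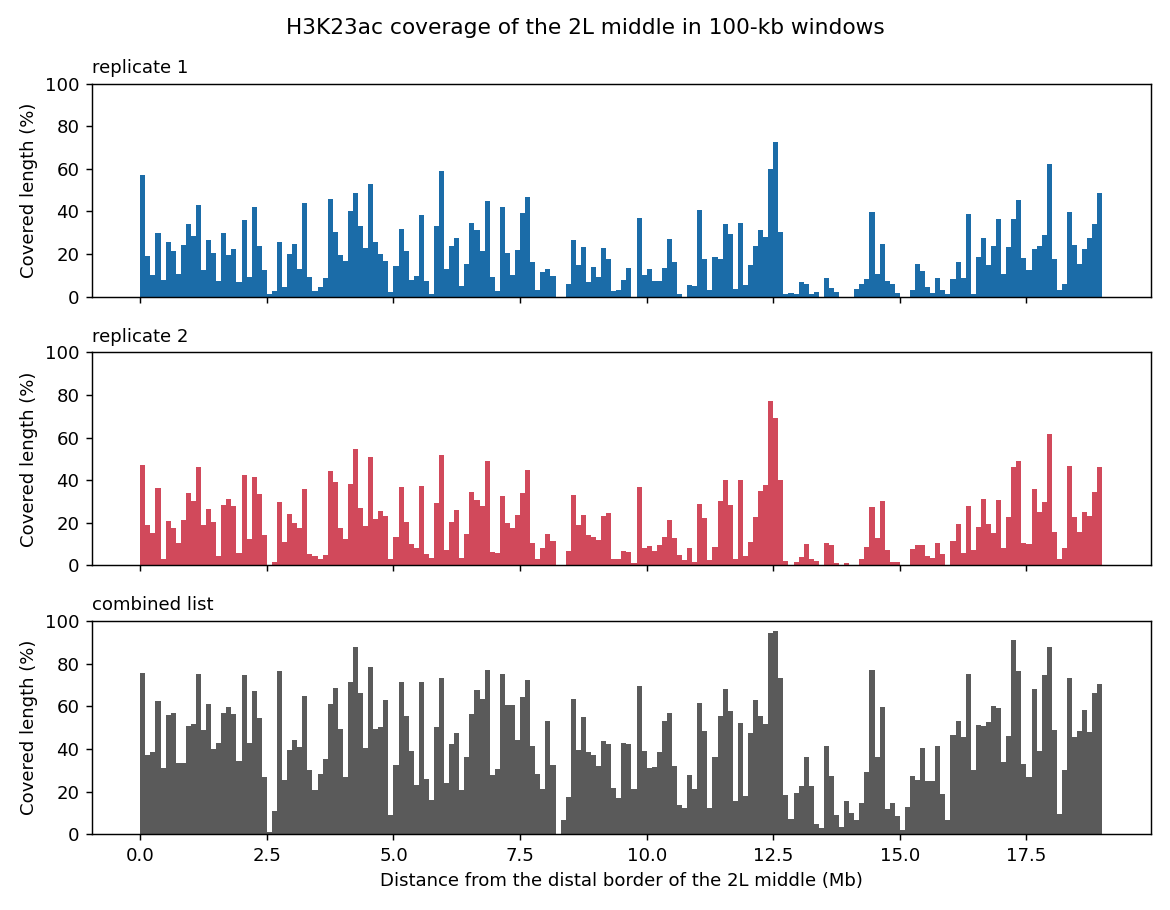
Covered share (%) of each of the 190 windows of 100 kb of the 2L middle, plotted against the distance of the window from the distal border of the span (Mb), with a panel each for replicate 1, replicate 2 and the combined list. The tallest bars of each replicate stand between 12 and 13 Mb from the distal border, at 72.6% in replicate 1 and 77.2% in replicate 2. They come shortly before a mostly low stretch between 13 and 16 Mb, in which the window that starts at 16400001 reached 39.7% and 27.6%.

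The replicates differed in a window by a median of 2.57 percentage points. The difference was above 10 points in 7 windows, and was largest for the window that starts at 14400001, with 59.8% in replicate 1 and 77.2% in replicate 2. Across windows, Pearson's r between replicates was 0.95 and Spearman's rho 0.95; neighbouring windows share an arm and are not independent, and no p-value is given. The same windows were thus high and low in both replicates, although single regions were shared less closely, as described below.

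**Figure D2:**
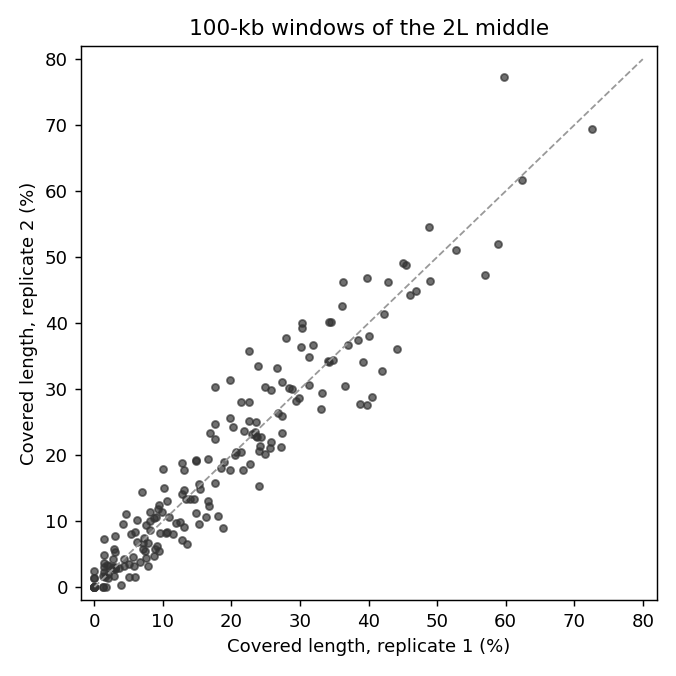
Covered share (%) of each 100-kb window of the 2L middle in replicate 2 against replicate 1, 1 point for each of 190 windows, with a dashed line where both would be equal. Points lie along the line, with a median distance between replicates of 2.57 percentage points and the largest at 17.5.

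Windows with more coverage mainly had more regions. This is in part given by construction, since the covered share adds up the widths of the regions in a window. In the replicates the number of members in a window and its covered share had a Spearman rho of 0.97 and 0.95, over 190 windows that are not independent. The median width of the members went less closely with coverage, at 0.60 and 0.61 over the windows that held members, and the median score less still, at 0.24 and 0.33. For combined members the order was turned round, with 0.50 for the number and 0.78 for the median width. A window held a median of 7 members in each replicate and at most 24 in replicate 1 and 20 in replicate 2.

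The 5 most covered windows lay in different parts of the span. The window from 14500001 to 14600000 was covered at 72.6% in replicate 1 and 69.4% in replicate 2, and its distal neighbour from 14400001 at 59.8% and 77.2%. The others were 19900001 to 20000000, at 62.4% and 61.6%, 7900001 to 8000000, at 58.9% and 51.9%, and the first window, 2000001 to 2100000, at 57.0% and 47.3%. The windows at 14.4 to 14.6 Mb reached 94.5% and 95.4% in the combined list. The 100-kb windows above 30% in both replicates formed 27 separate runs, of which 7 were longer than 1 window and the longest, from 14400001 to 14700000, had 3.

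The least covered windows were empty. In 7 windows neither replicate had a covered base: 10200001 to 10400000, which is 2 windows, and those that start at 15400001, 15800001, 16000001, 17000001 and 17100001. The window 10200001 to 10300000 was also at 0 in the combined list, while the other 6 were at 2.02% to 12.8% there. Windows below 5% in both replicates formed 18 runs, of which 10 were longer than 1 window. The longest run was 5 windows, from 15700001 to 16200000, covered at 1.17% in replicate 1, 0.585% in replicate 2 and 8.95% in the combined list. The run of 3 windows from 14700001 to 15000000, at 1.43% and 1.34%, directly followed the longest run above 30%, at 54.2% and 62.2%. In the replicates a densely marked and a nearly empty stretch thus met at 14.7 Mb. The combined list covered these 2 runs at 15.0% and 87.8%.

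The next comparison asked how coverage changed from the distal to the proximal part. By 3 segments of equal length, 6.34 Mb each, the covered share was 22.3%, 18.4% and 14.7% in the distal, central and proximal segments of replicate 1, and 22.4%, 19.1% and 14.8% in replicate 2. The proximal segment was at 0.660 of the distal segment in replicate 1 and at 0.661 in replicate 2, a difference of -7.58 percentage points ± 0.0081. This was larger than the spread between replicates; the exact sign-flip permutation test within replicates, two-sided, gave p = 0.5, which is the smallest this test can give with 2 replicates, here and in every such test below. By the combined regions the proximal segment was covered at 37.2% and the distal segment at 47.1%.

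In the replicates, the lower coverage of the proximal segment went with fewer members rather than with much narrower or weaker ones. Replicate 1 had 382 members in the proximal segment and 552 in the distal segment, and replicate 2 had 399 and 537. Median widths were 1877.5 bp in the proximal and 1948.5 bp in the distal segment of replicate 1, and 1790.0 bp and 1998.0 bp in replicate 2. Median scores were 0.55 in the proximal and 0.57 in the distal segment of both replicates, a mean difference of -0.022 ± 0.0040 on the log2 scale. The combined list differed, with member numbers closer together, 832 in the proximal and 877 in the distal segment. Its proximal-to-distal ratio was 0.949 for regions per Mb and 0.897 for the median width, which was 1803 bp against 2011 bp.

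The decline was not a steady slope. In windows of 1 Mb, the mean of the replicates was between 19.5% and 27.7% in each of the 8 windows from 2 to 10 Mb. It was 12.6%, 12.5% and 9.33% in the windows that start at 10, 11 and 12 Mb, 20.7% at 13 Mb and 28.1% at 14 Mb. Low values followed, with 3.16% in replicate 1 and 4.17% in replicate 2 at 15 to 16 Mb. They were 10.8% and 9.35% at 16 to 17 Mb, and 4.95% and 5.05% at 17 to 18 Mb. Within 16 to 17 Mb, the 100-kb window from 16400001 reached 39.7% and 27.6%. From 18 Mb coverage was again high, at 19.5% and 18.6%, then 28.4% and 29.9%, then 23.9% and 24.1% in the last full window, 20 to 21 Mb. The window 19 to 20 Mb was the most covered of all 19 by the mean of the replicates.

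The span can therefore be described in 3 blocks, whose borders were chosen after the values were seen and which are not tested. From 2 to 10 Mb the coverage was 22.3% ± 0.0227, from 10 to 18 Mb 12.7% ± 0.430 and from 18 to 21 Mb 24.1% ± 0.194. Members numbered 87.0 ± 1.77, 55.9 ± 1.24 and 94.7 ± 3.77 per Mb in these blocks. Median widths were 1967 bp ± 50.6, 1774.5 bp ± 36.8 and 1889.75 bp ± 90.2, and median scores 0.57 ± 0.0040, 0.55 ± 0.0029 and 0.55 ± 0.0026. Combined regions covered the blocks at 47.9%, 33.3% and 53.4%.

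The ratio of the proximal to the distal segment depended on the 3 Mb from 15 to 18 Mb, which lie within the proximal segment. With these left out, an alternative added after the values were seen, the rest of the proximal segment was covered at 22.2% in replicate 1 and 22.5% in replicate 2, against 22.3% and 22.4% in the distal segment, a mean ratio of 1.00. These megabases were picked for their low values, so leaving them out had to raise the ratio. Leaving them out does not change the central segment, which was also below the distal segment, at 18.4% in replicate 1 and 19.1% in replicate 2. When the last 3 Mb of the span were set against the first 3 Mb, the order was the other way, with 24.3% and 24.4% in the last and 21.3% and 22.6% in the first, a mean ratio of 1.11. As a description, Spearman's rho between position and coverage was -0.16 over all 190 windows of 100 kb in both replicates. It was -0.40 and -0.39 over the 160 windows up to 18 Mb, and 0.30 in both replicates over the 30 windows from 18 Mb. The cut at 18 Mb was chosen after the values were seen and falls where the low values end. The more negative rho before the cut follows in part from that choice.

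Other arm middles, cut by the same rule, showed other profiles. The proximal segment was at 0.836 and 0.797 of the distal segment on 3R in replicates 1 and 2, at 0.821 and 0.716 on X, and at 0.986 and 1.01 on 3L. On 2R it was higher, at 1.23 and 1.18. Whether the fall on 2L differed from that on another arm was not tested.

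**Figure D3:**
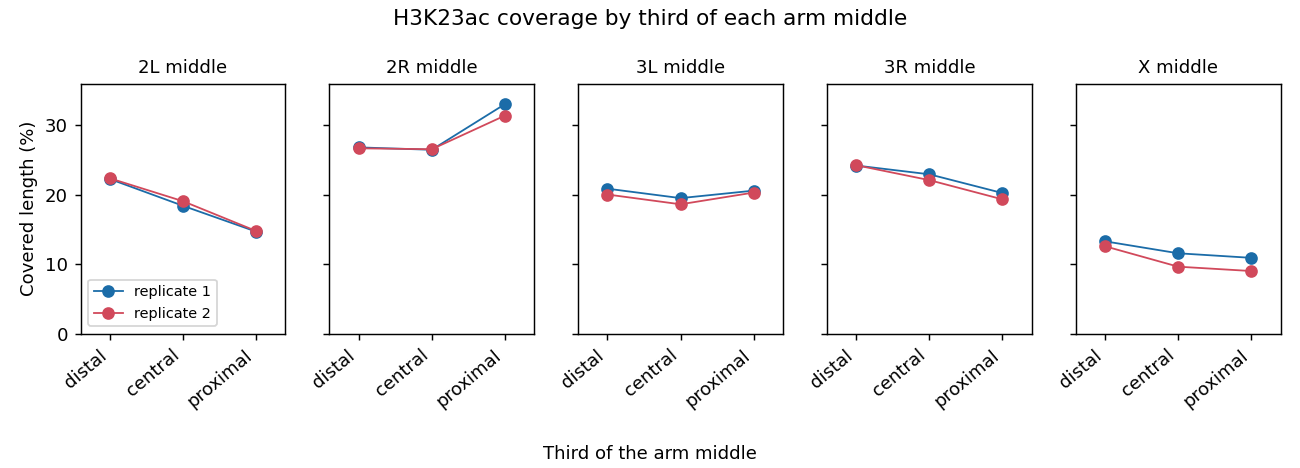
Covered share (%) in the distal, central and proximal segment of each arm middle, for replicate 1 and replicate 2, with 2L in the leftmost panel. On 2L both replicates go down in steps, with 14.7% and 14.8% in the proximal segment; on 2R the proximal segment is the highest, at 33.0% and 31.4%, and on 3L the segments lie between 18.6% and 20.9%.

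Compared with the 3 other autosomal arms, the 2L middle was less covered. It had 18.4% and 18.7% in replicates 1 and 2, against 23.5% and 22.9% over the middles of 2R, 3L and 3R together, a ratio of 0.801 ± 0.0234 and a difference of -4.61 percentage points ± 0.626 (exact sign-flip permutation p = 0.5, two-sided). It was lower in both replicates than each of them, and nearest to 3L, at 20.3% and 19.7%. Per Mb it had 74.9 and 75.5 regions, against 90.2 and 87.3. The X middle was lower, at 11.9% and 10.4%, and adding it to the other arms moved the ratio to 0.910.

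Median widths, gaps and scores of the 2L members were close to those on the other autosomes. Median widths were 1881 bp and 1891 bp on 2L, against 1939 bp and 1947.5 bp over the 3 other middles. Median gaps were 3396 bp and 3537.5 bp on 2L and 3168 bp and 3152 bp on the others. Mean gaps were wider on 2L than on each of them, at 10895 bp and 10789 bp. They were 9776 bp and 10257 bp on 3L, 8801 bp and 9095 bp on 3R, and 6875 bp and 7177 bp on 2R. The median score differed by -0.0072 and -0.0063 on the log2 scale, and the 2L medians of 0.56 lay within the range of the other 3 arms in both replicates, 0.56 to 0.58.

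Of the 6 measures set against the other autosomal middles, the length in long unmarked stretches differed most as a ratio. Gaps of at least 50 kb between neighbouring members took 30.3% of the 2L middle in replicate 1 and 29.0% in replicate 2, against 17.3% and 18.4% of the other 3 middles together, a ratio of 1.66 ± 0.126 and a difference of 11.8 percentage points ± 1.74 (exact sign-flip permutation p = 0.5, two-sided). The share was 23.02% and 23.58% on 3L, 18.8% and 19.4% on 3R and 8.43% and 10.9% on 2R. On X it was 33.1% and 40.5%. Combined gaps of this length took 5.42% on 2L, against 1.83% on the other 3.

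There were 61 such stretches on 2L in replicate 1, 5.77 Mb in all, and 56 in replicate 2, 5.51 Mb in all. They were 4.29% and 3.91% of all gaps. By number 2L was near 3L, with 53 and 59 (3.17% and 3.67% of its gaps), and 3R, with 57 in each replicate (2.71% and 2.78%). On 2R there were 19 and 22, and on X 68 and 84, in middles of other lengths. Stretches of at least 100 kb numbered 15 and 16 on 2L. The block from 10 to 18 Mb is 42.1% of the span and held 65.8% of the stretch length in replicate 1 and 67.6% in replicate 2, in 35 stretches in each. This block was chosen after its low coverage was seen, so its large part of the stretch length follows in part from that choice.

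**Figure D4:**
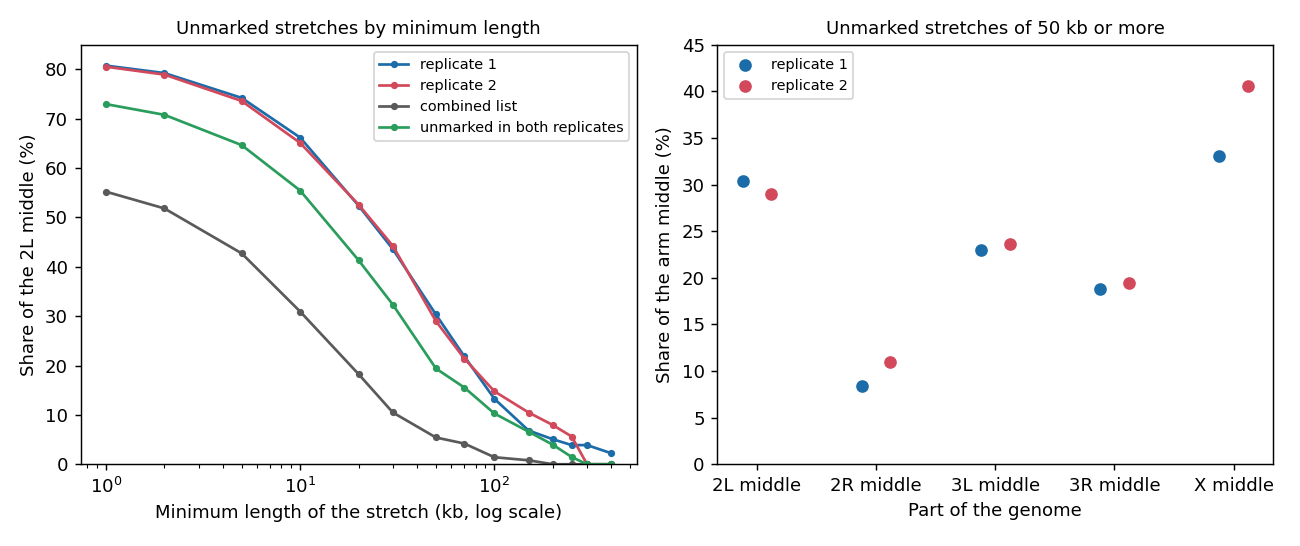
Left, share of the 2L middle (%) in unmarked stretches at least as long as the value on the log-scaled horizontal axis (kb), for replicate 1, replicate 2, the combined list and the bases unmarked in both replicates. Right, share of each arm middle (%) in stretches of 50 kb or more in each replicate, where 2L, at 30.3% and 29.0%, lies above 2R, 3L and 3R and below X.

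The unmarked stretches were shared over most of their length, but few were shared whole. Of the length of the stretches of at least 50 kb in replicate 1, 97.4% was unmarked in replicate 2, and 97.4% the other way round, while 81.3% and 81.6% of the whole span was unmarked in the replicate compared. Stretches wholly unmarked in the other replicate numbered 10 of the 61 of replicate 1 and 4 of the 56 of replicate 2. In 39 of the 61 stretches of replicate 1 and 39 of the 56 of replicate 2, the best matching gap of the other replicate also reached 50 kb. Both borders matched within 500 bp for 3 stretches of each replicate, and at least 1 border for 20. Regions of the other replicate that touched a stretch, those that only reached over its border included, numbered 2 by the median and at most 5.

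Bases unmarked in both replicates formed 37 stretches of at least 50 kb, 3.69 Mb or 19.4% of the span, of which 25 with 2.71 Mb lay from 10 to 18 Mb. The combined list covered 8.88% of these stretches, against 42.7% of the span. It had 219 regions wholly inside them, or 59.4 per Mb, against 139 per Mb over the span, with a median width of 1289 bp and a median score of 0.37. Each of the 37 stretches was touched by at least 1 combined region.

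The longest stretch unmarked in both replicates ran from 16923107 to 17202133, 279027 bp. It began after a region that ended at 16923106 in replicate 1 and 16922923 in replicate 2. Its proximal side differed: the next region of replicate 2 was 17202134 to 17204043, and that of replicate 1 started at 17237335. The 19 combined regions that overlapped it covered 7.84% of its bases.

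The second, from 15922141 to 16170073, and the fourth, from 15746634 to 15920793, together made the longest gap of replicate 1, 423440 bp. In replicate 2 this gap was interrupted by a single region, 15920794 to 15922140, 1347 bp wide with a score of 0.53. Replicate 2 instead had 2 gaps here, of 217357 bp and 277600 bp, the first of which began at 15703437. The third, from 10196618 to 10420806, had nearly the same borders in both replicates. It measured 224762 bp (replicate 1) and 224189 bp (replicate 2), with starts 27 bp apart and ends 546 bp apart. The combined list had no region in 152553 bp of it, from 10196915 to 10349467, its longest gap in the 2L middle.

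**Figure D5:**
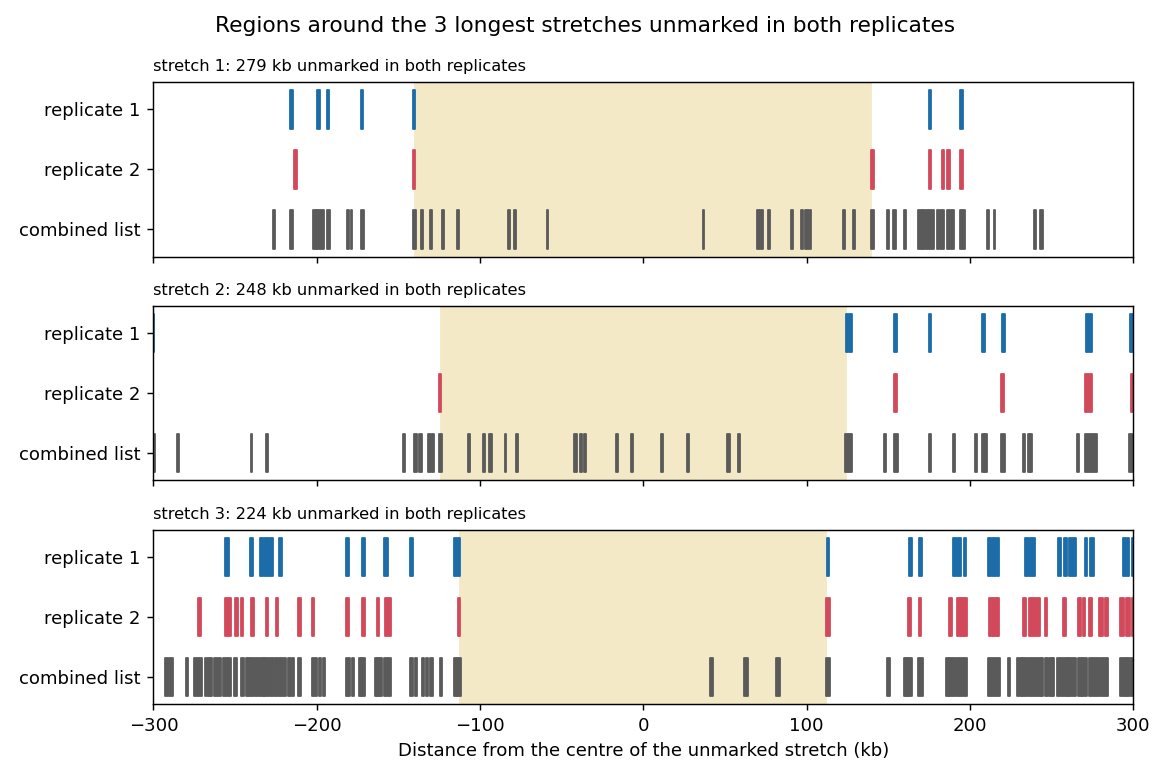
Regions of replicate 1, replicate 2 and the combined list around the 3 longest stretches of the 2L middle that are unmarked in both replicates, within 300 kb of the centre of each stretch (kb); the stretch is shaded and each block is 1 region drawn to scale. The combined list has 19, 16 and 5 regions that overlap the shaded stretches of 279, 248 and 224 kb, and the third is bordered by regions of both replicates at both ends.

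Some other borders also matched closely. The fifth, 15335912 to 15501625 in replicate 1 and 15335770 to 15501674 in replicate 2, differed by 142 bp at its start and 49 bp at its end. The stretch from 17258190 to 17373010 in replicate 1 differed from its match in replicate 2 by 177 bp and 342 bp. The stretch of 131260 bp in replicate 1 from 16715081 to 16846340 was covered at 2.25% by the combined list, with 117779 bp free of any combined region. Outside the block from 10 to 18 Mb, the longest were 6904808 to 7039672, unmarked in both replicates over 134865 bp, and 4577123 to 4695239, over 118117 bp. The second of these was part of a gap of 260806 bp in replicate 2, which 4 regions of replicate 1 touched.

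Some members stood alone. Members with no neighbour within 10 kb numbered 143 in replicate 1 and 139 in replicate 2, 10.0% and 9.69% of all. They were 1597 bp (replicate 1) and 1569 bp (replicate 2) wide by the median, and the other members 1946 bp and 1940.5 bp, and they scored 0.54 by the median in both replicates, against 0.56. Members beside a stretch of at least 50 kb were also narrower by their median, at 1597 bp and 1661.5 bp, while other members had 1909.5 bp and 1922 bp.

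The replicates shared most but not all members. Of the members of replicate 1, 974 shared at least 1 bp with a region of replicate 2, 68.4% (exact binomial 95% interval 65.9 to 70.8), and 958 of the members of replicate 2 did so with replicate 1, 66.8% (64.3 to 69.2). These intervals describe the counting of regions alone. With at least 50% of both regions overlapping, the shares were 44.5% and 44.1%. These shares are not given here for the other arms or the whole lists, and overlap by position alone was not computed. They are not read as particular to 2L. In common the replicates covered 2.14 Mb, and together 4.93 Mb, which makes a Jaccard index (shared over total length) of 0.435, against 0.508 on the 2R, 0.438 on the 3L, 0.455 on the 3R and 0.265 on the X middle. The index depends on the share covered, so the arms are not ranked by it.

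Shared members were wider and scored higher than single ones. The 974 shared members of replicate 1 had a median of 2122 bp and its 450 single ones 1538 bp; the 958 shared members of replicate 2 had 2180 bp and its 477 single ones 1561 bp. Median scores were 0.57 for shared and 0.54 for single members in both replicates. A wide region also meets another list more often by position alone, which was not computed here. Over 633 pairs with at least 50% overlap, the starts differed by a median of 296 bp and the ends by 293 bp. The scores of overlapping members had a Spearman rho of 0.34 over 1116 pairs, and of 0.51 over the 633 pairs, as a description across pairs that are not independent.

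The widest members were found in both replicates. The widest of replicate 1, 6498640 to 6518339, was 19700 bp with a score of 0.75, and 98.5% of it was covered in replicate 2. The widest of replicate 2, 6179006 to 6199426, was 20421 bp with a score of 0.77, and 99.1% of it was covered in replicate 1. Next came 5771500 to 5791097, 6181199 to 6198694, 14535013 to 14551249 and 18639954 to 18655196 in replicate 1, between 19598 bp and 15243 bp, and 19939041 to 19956762, 19896071 to 19912364, 6498519 to 6513590 and 6265410 to 6279218 in replicate 2, between 17722 bp and 13809 bp. Each of the 10 widest of replicate 1 was covered in replicate 2 over at least 68.4% of its length, and each of the 10 widest of replicate 2 in replicate 1 over at least 60.2%. The other widest members had between 13830 bp and 12382 bp in replicate 1 and between 12828 bp and 11846 bp in replicate 2. The block from 18 to 21 Mb held 4 of the 10 in each replicate. It is 15.8% of the span and held 276 of the 1424 members of replicate 1 and 292 of the 1435 of replicate 2. This block was chosen after its high coverage was seen, and wide members add to coverage. The 4 of 10 are therefore not read as a concentration of wide members there.

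In the combined list the widest member was the one at the proximal border, 39803 bp, with 85.1% of its bases covered by replicate 1 and 75.1% by replicate 2. Next came 7893380 to 7928716, 35337 bp with a score of 0.65 and covered at 95.7% and 87.0%, and then 19927188 to 19957534, 30347 bp, and 6178960 to 6209048, 30089 bp. The remaining 6 of the 10 widest were between 29053 bp and 24021 bp, and 3 of them lay between 14194436 and 14588662. All 10 overlapped both replicates; nearly all replicate members overlap the combined list, so this is no independent support.

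The highest-scoring members were not all found in both replicates. The top member of replicate 1, 15696192 to 15698899 with a score of 1.01, overlapped no region of replicate 2, and the top member of replicate 2, 15676016 to 15677863 with a score of 1.07, overlapped none of replicate 1. Both lay in the poorly covered megabase from 15 to 16 Mb, with nearest neighbours 32132 bp and 11404 bp away in their own lists. Of the 10 highest-scoring members, 6 of replicate 1 had a partner in replicate 2 and 7 of replicate 2 had one in replicate 1, beside 68.4% and 66.8% of all members. The same place was among the top 10 of all 3 lists for 14490871 to 14494098 (replicate 1, score 0.90) with 14490708 to 14493928 (replicate 2, score 0.92) and for 11212038 to 11215651 (0.81) with 11212228 to 11215840 (0.84). Others with a partner were 19166411 to 19172001 in replicate 2, with 0.93, and 12535359 to 12540660 in replicate 2, with 0.92, which stood directly before an unmarked stretch of 84934 bp.

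The top of the combined list was of another kind. Its 3 members with a score of at least 1 were 5174572 to 5175582 at 2.18, 2108566 to 2109602 at 1.65 and 2298356 to 2299356 at 1.41. They were between 1001 and 1037 bp wide and overlapped no region of either replicate. The next by score, 17277096 to 17278196 at 0.90, also overlapped none. The same held for 10862564 to 10863800 at 0.75 and 15710484 to 15711762 at 0.74, the lowest of the 10 highest-scoring combined members. Among these 10, 3 overlapped replicate 1, 4 overlapped replicate 2 and 3 overlapped both. The fifth and sixth by score were the places named above at 14490690 to 14494198 and 19166198 to 19172152, with 0.83 and 0.81, each covered over at least 91.8% of its length in both replicates.

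Many combined members had no counterpart in either replicate list. Of 2634 members, 697 overlapped both, which is 26.5% (24.8 to 28.2, interval as above). A single replicate was overlapped by 338 (replicate 1) and 348 (replicate 2), and 1251 overlapped neither, 47.5% (45.6 to 49.4). Those in both had a median width of 4913 bp and made up 55.9% of the summed width, and those in neither had 1335 bp and 23.5%. The share in neither was 42.9% (40.0 to 45.9) from 2 to 10 Mb, 53.8% (50.7 to 56.9) from 10 to 18 Mb and 44.8% (40.2 to 49.4) from 18 to 21 Mb. These blocks were chosen after their replicate coverage was seen, and lower replicate coverage leaves fewer regions to overlap. The order of these shares is therefore no independent support for the blocks. All but 3 members of replicate 1 and 9 of replicate 2 overlapped the combined list. The shares in both and in neither are not given here for the other arms or the whole list. They are not read as particular to 2L.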

How the data were processed

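H3K23ac ChIP-seq of adult Oregon-R head nuclei was analysed as 3 lists of enriched regions, 2 deposited with the ChIP replicates and 1 with the series. Bowtie 0.12.7 is named, without its role, per the submitters' processing notes; the peak caller, its threshold, filters, depth and the making of the combined list are unknown: not given in the sources used. Coordinates are 1-based on FlyBase release 5, per the file headers. The score deposited by the authors was read as a log2 value from the values themselves: 2 raised to the difference between scores came out as a quotient of whole numbers for 100% of replicate and 99.6% of combined regions (tolerance 1e-12, denominator at most 20000). Its zero point is unknown. No interval for read counting could be given.

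Computed here with Python 3.11.15, numpy 2.4.6, pandas 2.3.3 and scipy 1.17.1 were members by midpoint, covered bases of members clipped to the span, gaps between neighbouring members, overlaps of at least 1 bp, exact Clopper-Pearson intervals and two-sided exact sign-flip permutation tests within replicates. Partners in overlaps could lie beyond the borders. Interval steps were tested on simulated data. Named regions are the 10 widest, highest-scoring and longest unmarked of each list, given in full for the leading ones and as ranges for the rest, and the 5 most and least covered windows; of the windows tied at 0, all 7 are named. The members and lists were chosen with earlier results of these data known. The gene table at hand belongs to release 6 and was not used.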

Additional observations from a re-analysis of the deposited data

Results flagged for a closer look

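The change between the proximal and the distal segment ran in opposite directions on 2L and 2R in both replicates. On the 2L middle the proximal segment was covered at 14.7% and 14.8% in replicates 1 and 2 and the distal segment at 22.3% and 22.4%, a mean ratio of 0.660. On the 2R middle the proximal segment was covered at 33.0% and 31.4% and the distal segment at 26.8% and 26.7%, a mean ratio of 1.20. In the combined list the 2R segments were close, at 54.1% and 54.8%. The difference between the arms was not tested.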

How the results depend on the processing

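Values are means of the replicates unless stated. Keeping only regions that score above their own list's median left 574 members with a median width of 2530.25 bp, a median spacing of 11951 bp, 9.98% covered and 56.8% in unmarked stretches; the overlapping share was 53.4%, the Jaccard index 0.352 and the window correlation 0.904. Merging regions under 1000 bp apart gave a median width of 2029.75 bp, a spacing of 5604.25 bp, 19.3% covered and an index of 0.450. With 3 Mb taken off each arm end, the median score was 0.556, coverage 17.9%, unmarked stretches 31.4% and the score correlation 0.334. In the combined list there were 2634 members, a median width of 1912 bp, a spacing of 1467 bp, 42.7% covered and 5.42% in unmarked stretches. Unmarked stretches took 43.9% with a minimum of 30 kb, 14.0% with 100 kb and 19.4% for bases unmarked in both replicates. A reciprocal overlap of 50% gave an overlapping share of 44.3% and a score correlation of 0.513. The window correlation was 0.934 in windows of 50 kb and 0.972 in windows of 500 kb. Of combined regions, 15.7% lay in both replicates when each had to cover 50% of the region, and 39.3% to 39.7% lay in the remaining replicate when the other was left out.

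The ratio of the proximal to the distal segment, 0.660, was 1.00 without 15 to 18 Mb and 1.11 for the last over the first 3 Mb, both added after the data were seen, as was the value for bases unmarked in both replicates. It stayed below 1 in the other alternatives, from 0.538 above the median score to 0.794 with 2 segments of equal length. The ratio of 2L to the other middles, 0.801, stayed between 0.733 and 0.910. Of 74 values under alternatives, 41 were counted as kept, 31 as moved and 2 as reversed. Those counted as kept were not all within the spread. The number of members, 1429.5 with an SD of 7.78, was counted as kept at 1102.5 after merging. It was also counted as kept at 1240 with 3 Mb taken off each arm end. With 2 replicates, leaving 1 out keeps every mean within its SD by construction. The cause of the moves was not tested where the alternative's own construction does not give it. Arms and segments were compared within each replicate. Between ChIP and input, no paired analysis was possible because the input samples have no list analysed here.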
